A study of Mus musculus with 4 samples.

Results

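The 8 myogenic regulator genes Myf5, Myf6, Myod1, Myog, Pax7, Lbx1, Met and Mef2c were examined for binding of CTCF, a zinc-finger protein that marks chromatin loop anchors and domain borders. Each RefSeq gene span of mm10 was taken with 100 kb on both sides, which gave 7 windows because Myf5 and Myf6 are neighbours. Peaks from the 4 tissue lists that shared at least 1 base were merged, and the windows held 119 of the 121759 resulting union sites. The tissues were proximal forelimb and distal forelimb of embryonic day E12.5, posterior trunk of E10 and brain of E12.5. All 4 came from wild-type mouse embryos of the B6CBAF1 strain and were profiled with the same CTCF antibody by chromatin immunoprecipitation and sequencing (ChIP-seq). The trunk piece was pooled from many embryos and held tailbud, presomitic mesoderm and a few somite pairs, and the brain sample pooled the telencephalon of several embryos. Both forelimb samples are marked as data analysed again. There was 1 library per tissue, so differences between tissues have no replicate check and are described without p-values. Posterior trunk was the only sample of E10, so tissue and stage cannot be told apart where it differs from the others. A site counts as called in a tissue when a peak of that list lies in it, and a count of 0 peaks means only that none passed the authors' threshold.

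Myf5, Myod1, Myf6 and Myog encode basic helix-loop-helix transcription factors that commit cells to the skeletal muscle lineage and drive their differentiation. Pax7 encodes a paired-box factor of muscle progenitors and of adult satellite cells. Lbx1, a homeobox gene, and Met, the gene for the receptor of hepatocyte growth factor, are needed by the muscle precursors that leave the somites and migrate into the limb bud, where they settle mostly in its proximal part. Mef2c encodes a MADS-box factor that acts together with the myogenic factors and also works in heart and in neurons.

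The lists differed in depth. Proximal forelimb had 63873 peaks, distal forelimb 64793, posterior trunk 106662 and brain 74127. Relative to distal forelimb, depth was 1.08 in proximal forelimb, 2.21 in posterior trunk and 2.02 in brain, as read from the lowest local background in each list. Fold denotes the authors' ratio of summit pileup to local background, and rank percentile the place of a peak when its list is ordered by the authors' p, where 100 is the strongest. Both describe a peak inside its list. The highest pileups were close, at 365 in proximal forelimb, 368 in distal forelimb, 399 in posterior trunk and 393 in brain, although depth differed. Folds of the strongest sites therefore cannot be compared between lists as binding strength. Below and above a gene mean towards lower and higher coordinates of mm10.

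Sequence could be shown for gene starts only, from RefSeq promoter windows on GRCm38.p6, the assembly of mm10, which run from 250 bases before a gene start to 50 after it. Of the 8 members, 5 were in that table with 7 promoters in all, and Myf6, Myod1 and Lbx1 were not. A CTCF site overlapped 0 of these 7 promoters, while 18.6% of all 32851 promoters overlapped a union site. At Myf5 a trunk-only site lay 274 bases from the start inside the gene. At Met a site called in all 4 tissues overlapped the lower end of the gene span, which is its 5′ end on the plus strand. It ended 293 bases before the gene start of the Met promoter window, a start that lies inside the span. At Myog a site called in all tissues lay 854 bases downstream of the start. Among all 40 promoters in the windows, 5 overlapped a site. The 4 of these whose site was missing from at least 1 tissue are printed 5′ to 3′ on the strand of the gene, since they show where a CTCF call at a gene start differed between lists, and capitals mark the bases inside the site. C130071C03Rik, a non-coding gene in the Mef2c window with Mir9-2 inside its span, has 2 such starts on the plus strand, at chr13:83721131-83721430 with a brain-only site and at chr13:83732243-83732542 with a trunk-only site. Adora1, the adenosine A1 receptor gene, lies in the Myog window on the minus strand at chr1:134234807-134235106, with a site called in proximal forelimb and posterior trunk. Ppfia4, a liprin gene next to Myog, is on the minus strand at chr1:134344667-134344966, with a distal-forelimb-only site.
C130071C03Rik start with the brain-only site: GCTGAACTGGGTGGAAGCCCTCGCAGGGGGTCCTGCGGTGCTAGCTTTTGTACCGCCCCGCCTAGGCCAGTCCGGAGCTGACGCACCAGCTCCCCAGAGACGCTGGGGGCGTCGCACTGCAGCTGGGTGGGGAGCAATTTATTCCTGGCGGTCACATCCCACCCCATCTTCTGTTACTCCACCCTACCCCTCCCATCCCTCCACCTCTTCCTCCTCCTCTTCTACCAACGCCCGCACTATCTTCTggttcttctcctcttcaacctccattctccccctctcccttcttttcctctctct
C130071C03Rik start with the trunk-only site: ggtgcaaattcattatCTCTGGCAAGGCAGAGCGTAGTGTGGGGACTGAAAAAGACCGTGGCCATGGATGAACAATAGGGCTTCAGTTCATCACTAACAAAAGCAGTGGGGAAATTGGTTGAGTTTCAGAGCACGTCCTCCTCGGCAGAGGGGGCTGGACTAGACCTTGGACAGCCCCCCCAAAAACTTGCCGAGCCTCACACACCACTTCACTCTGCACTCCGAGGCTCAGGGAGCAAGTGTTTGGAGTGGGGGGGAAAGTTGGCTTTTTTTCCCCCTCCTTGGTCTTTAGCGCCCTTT
Adora1 start: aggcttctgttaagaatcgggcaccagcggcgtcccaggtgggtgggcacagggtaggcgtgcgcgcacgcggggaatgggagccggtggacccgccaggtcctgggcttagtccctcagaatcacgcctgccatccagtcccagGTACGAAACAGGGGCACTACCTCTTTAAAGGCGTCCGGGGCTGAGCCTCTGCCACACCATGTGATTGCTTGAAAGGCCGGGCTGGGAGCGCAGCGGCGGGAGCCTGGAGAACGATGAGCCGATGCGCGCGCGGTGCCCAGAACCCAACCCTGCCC
Ppfia4 start: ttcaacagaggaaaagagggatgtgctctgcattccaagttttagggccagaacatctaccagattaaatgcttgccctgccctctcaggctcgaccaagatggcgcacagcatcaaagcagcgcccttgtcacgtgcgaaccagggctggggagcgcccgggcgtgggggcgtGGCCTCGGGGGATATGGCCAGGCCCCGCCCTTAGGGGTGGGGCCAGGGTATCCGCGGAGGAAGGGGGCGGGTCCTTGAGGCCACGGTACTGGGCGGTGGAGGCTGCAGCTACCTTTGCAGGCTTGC

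Most CTCF sites around the myogenic genes were shared. Of the 119 sites, 66 (55.5%) were called in all 4 tissues, where 42.4% of all union sites were, and 44.8% of those within 100 kb of any protein-coding gene. In such bulk tissue, fewer cells carrying a bound site and weaker binding per cell cannot be told apart. Proximal forelimb had a peak in 77 sites (64.7%, against 52.0% of all union sites), distal forelimb in 69 (58.0%, against 52.8%), posterior trunk in 110 (92.4%, against 87.5%) and brain in 84 (70.6%, against 60.5%). Sites called in posterior trunk only numbered 27 (22.7%, against 28.4%), and brain-only sites 7 (5.88%, against 5.92%). Sites called in 1 tissue only, of any kind, numbered 36 (30.3%, against 39.6%), among them 1 in proximal forelimb only (0.84%, against 2.23%) and 1 in distal forelimb only (0.84%, against 3.11%). Peaks in posterior trunk or brain with none in either forelimb part were found at 40 sites (33.6%, against 39.7%), and 33 sites were called in posterior trunk and not in brain (27.7%, against 33.9%). The brain-only share was that of the genome, the shares called everywhere and in each tissue were above it, and the trunk-only share was below it. The 27 trunk-only sites had folds from 2.20 to 5.22 and none ranked above percentile 48.3 of the trunk list. Their number was 13 of 96 sites (13.5%, against 19.7% of all union sites) when all lists were scaled to the depth of distal forelimb and −log10 p had to reach 5. It was 4 of 89 (4.49%, against 6.48%) in lists of equal length. Brain-only sites were 3 when −log10 q had to reach 5, 3 with scaling and the higher −log10 p, and 13 without the posterior trunk list. Without that list, the 6 sites called in posterior trunk and brain count as brain-only by construction. Shares over all union sites were not computed for these brain-only counts, so nothing is read from them.

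**Figure D1:**
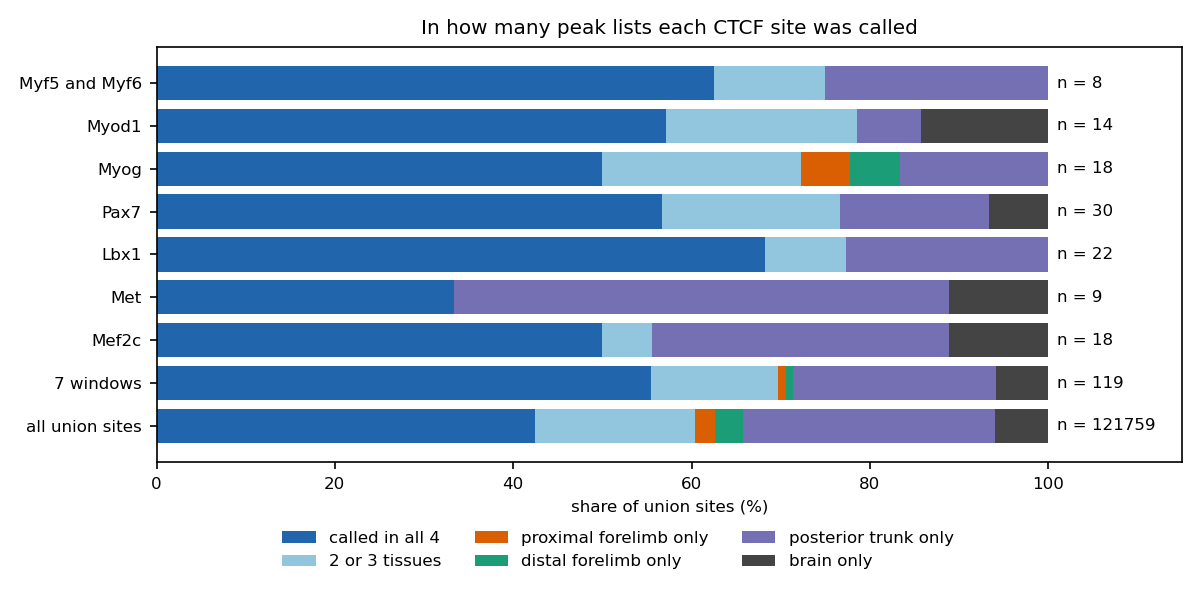
Share of union sites (x axis, percent) called in all 4 lists, in 2 or 3, or in 1 only, the last coloured by tissue, for each of the 7 windows, for the windows together and for all union sites, with the number of sites at the right. Met had the lowest share called everywhere, at 33.3%, and Lbx1 the highest, at 68.2%.

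The windows differed several-fold in how densely they were occupied. Lbx1 had 10.8 sites per 100 kb, Pax7 10.1 and Myog 8.89. Myod1 followed with 6.91, Mef2c with 4.96, Myf5 and Myf6 with 3.78 and Met with 2.90. The median over the windows of 21883 protein-coding genes was 7.13, with quartiles of 4.26 and 9.68, so Met and the Myf5 and Myf6 window lay below the lower quartile and Lbx1 and Pax7 above the upper one. Sites that ranked at percentile 80 or higher in every list made up 18 of the 119 (15.1%, against 9.26% of all union sites), and 7 of the 18 were in the Lbx1 window.

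**Figure D2:**
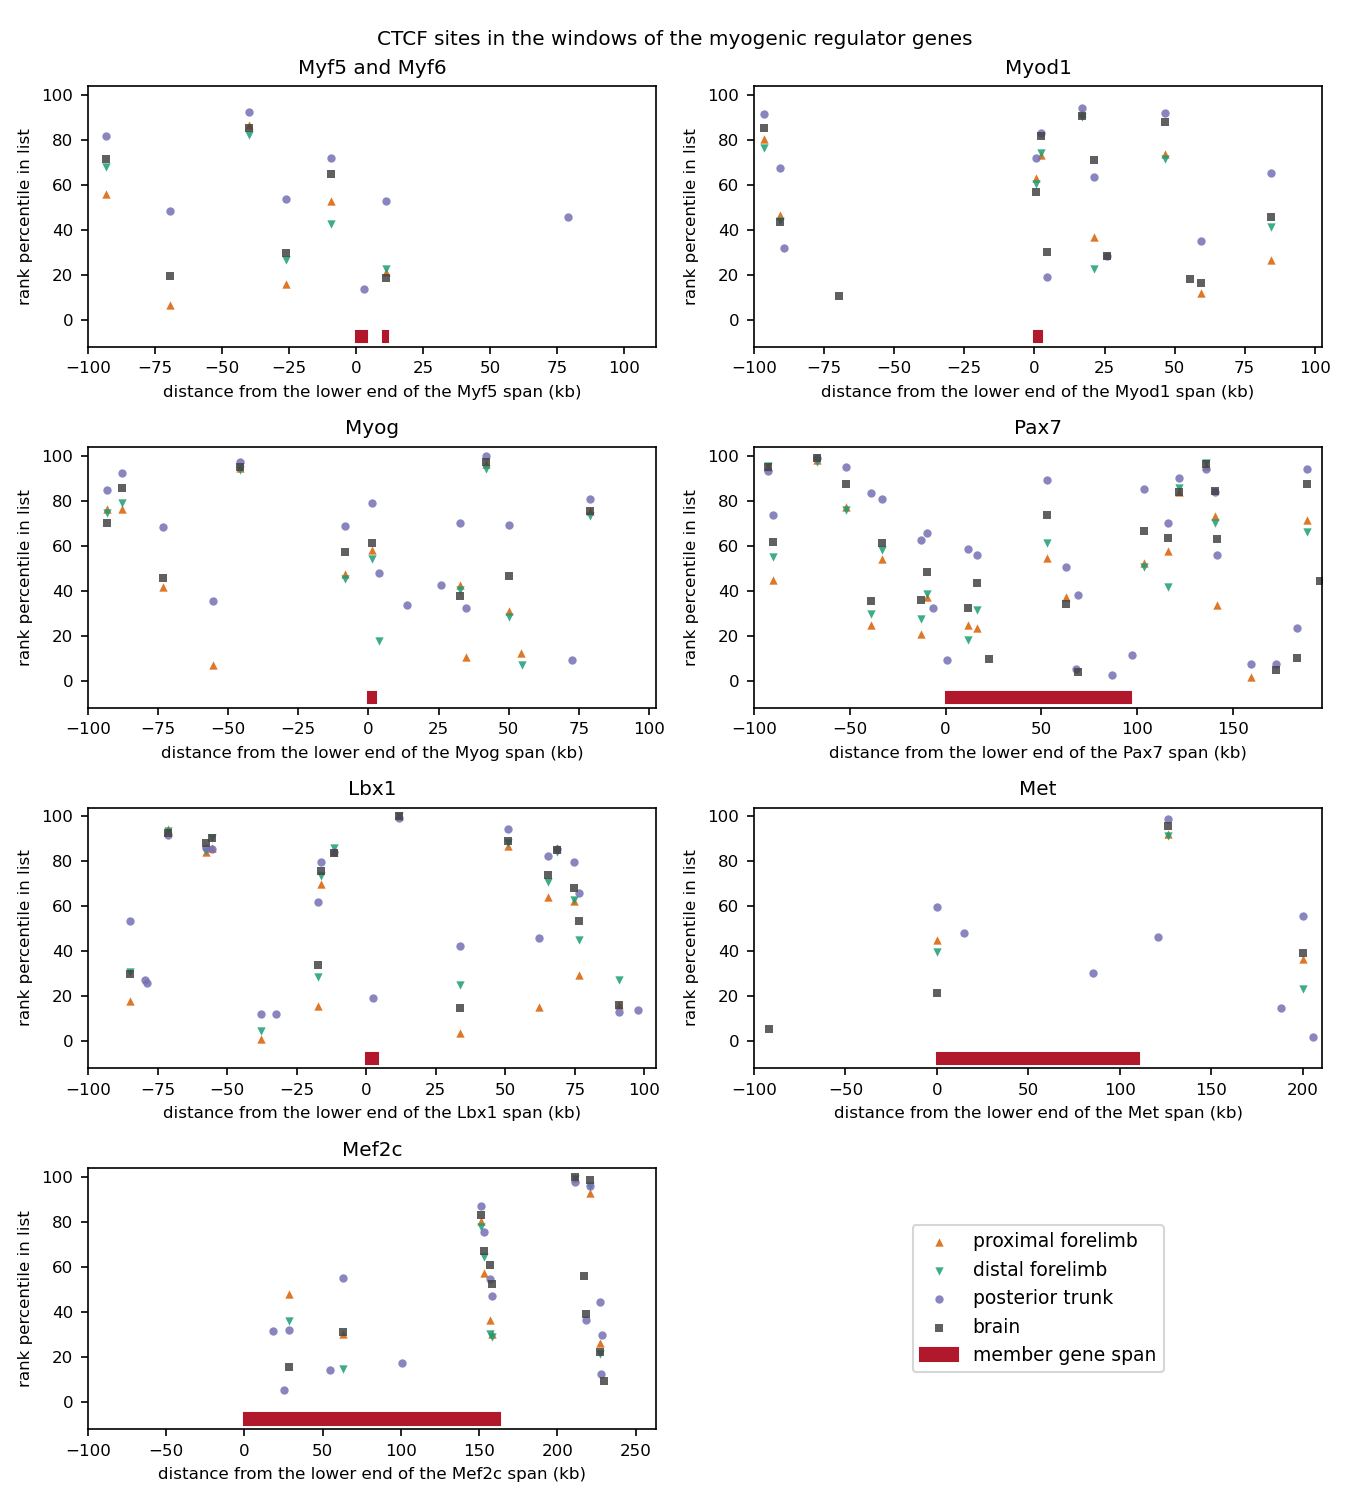
Rank percentile in its own list (y axis) of each CTCF peak by its distance from the lower end of the member's span in kb (x axis, mm10 plus-strand direction), with proximal forelimb, distal forelimb, posterior trunk and brain as separate symbols and the gene spans as red bars. Lbx1 and Myog have strong shared sites on both sides, whereas the first 100 kb of the Mef2c window hold no peak.

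Myf5 and Myf6, adjacent genes that share a long regulatory region, had 8 sites in their common window on chromosome 10. The strongest shared site was 107442661–107443412, 39.5 kb below Myf5, with folds of 15.6 in proximal forelimb, 15.8 in distal forelimb, 14.4 in posterior trunk and 13.3 in brain. Its percentile was 82.2 or higher in each list. Myf6 itself held 107493715–107494065, called in all 4 tissues, with folds of 4.21 in proximal forelimb, 4.36 in distal forelimb, 6.13 in posterior trunk and 3.25 in brain. The site within Myf5, 107485661–107485860, was called in posterior trunk only, at a fold of 2.78. On the other side, no site called in all tissues followed Myf6 until 209.5 kb away.

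Myod1, a determination gene of the lineage with a span of 2619 bases on chromosome 7, was overlapped by 2 sites called in all 4 tissues. The stronger, 46378206–46379391, reached past the upper end of the span, and its summit lay beyond that end in all 4 tissues. It had folds of 8.77 in proximal forelimb, 10.2 in distal forelimb, 8.70 in posterior trunk and 9.54 in brain. The other, 46376963–46377397, had 6.59 in proximal forelimb, 6.84 in distal forelimb, 6.21 in posterior trunk and 4.69 in brain. Another shared site, 46393017–46393648, lay 13.9 kb above the gene at percentiles 91.9 in proximal forelimb, 90.2 in distal forelimb, 94.0 in posterior trunk and 90.8 in brain. Below Myod1 the nearest site of any kind, 46306807–46307006, was 69.5 kb away and called in brain only, and the nearest shared one was 90.5 kb away. The shared sites near Myod1 therefore lay in the gene, across its upper end and above it.

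Myog, whose product acts in terminal muscle differentiation, held 1 site, 134290858–134291336 on chromosome 1. Its folds were 8.29 in proximal forelimb, 7.76 in distal forelimb, 11 in posterior trunk and 8.57 in brain. It was called everywhere and ranked at percentile 54.3 or higher in each list. Myog was also framed by strong sites, 134244002–134244671 at 45.3 kb below and 134331687–134332376 at 39.1 kb above. The site above stood at percentile 96.4 in proximal forelimb, 94.3 in distal forelimb, 99.8 in posterior trunk, where it was at place 192, and 97.1 in brain.

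Pax7 had the most sites of any window, 30 on chromosome 4, of which 17 were called in all 4 tissues and 9 overlapped the gene. The strongest inside Pax7 was 139789724–139790299, with folds of 7.58 in proximal forelimb, 9.57 in distal forelimb, 14.1 in posterior trunk and 11 in brain. The strongest of the window was 139669599–139670466 in Tas1r2, a taste receptor gene, with folds of 18.7 in proximal forelimb, 18.7 in distal forelimb, 14.7 in posterior trunk and 16.3 in brain. Just beyond the upper end of Pax7, where the gene starts on the minus strand, a weak site 139834301–139834581 was called in posterior trunk only, at a fold of 2.50.

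Lbx1 lay beside a CTCF site near the head of 3 of the lists. This site, 45244007–45244743 on chromosome 19, was 7.17 kb above the gene and had folds of 22.4 in proximal forelimb, 21.5 in distal forelimb, 13.6 in posterior trunk and 16.9 in brain. By p it stood at place 15 in the proximal forelimb list, 12 in distal forelimb, 602 in posterior trunk and 38 in brain. On the other side, 45220531–45221545 at 11.1 kb had percentiles between 83.9 and 86.2 in the 4 lists. Its strongest summit was at 45221317 in posterior trunk and between 45220746 and 45220754 in the other lists. The percentiles therefore need not describe the same peak within this joined site. The only site within Lbx1, 45234842–45235214, was called in posterior trunk only, with a fold of 2.72. Thus the gene was flanked by shared sites at short distance and held none itself.

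Met, the receptor gene of migrating precursors, had 9 sites in 310.6 kb, and 3 of them were called in all tissues. The window had 5 sites in lists of equal length and 4 without the posterior trunk list. The site at its lower end on chromosome 6, 17463309–17463664, had folds of 6.52 in proximal forelimb, 5.67 in distal forelimb, 6.81 in posterior trunk and 3.23 in brain. Among the 51657 sites called in all 4 tissues it ranked at percentile 32.8 in proximal forelimb, 25.3 in distal forelimb, 20.5 in posterior trunk and 4.19 in brain, so it was lowest in brain. The strong site of the window, 17589491–17590145, lay 15.5 kb above the gene with folds of 18.3 in proximal forelimb, 18.1 in distal forelimb, 16.4 in posterior trunk and 16.9 in brain. The gene body held 2 further sites, 17477814–17478150 and 17548449–17548699, both called in posterior trunk only, at folds of 4.83 and 3.48.

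Mef2c, the cofactor gene, had an empty stretch below it on chromosome 13. Its window held 18 sites (11 in lists of equal length), all of them inside or above the gene, and the 100 kb below held 0. The span itself held 10 sites, 6 shared by the 4 lists and 4 of posterior trunk alone. The shared sites at the upper part of the gene were led by 83654848–83655338, with folds of 12.4 in proximal forelimb, 11.7 in distal forelimb, 10.7 in posterior trunk and 10.9 in brain. At 47.9 kb above the gene lay 83714961–83715682, with folds of 20.2 in proximal forelimb, 19.4 in distal forelimb, 13.7 in posterior trunk and 19.1 in brain. It stood at place 294 in proximal forelimb, 398 in distal forelimb, 2158 in posterior trunk and 12 in brain.

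From the lower end of Mef2c, the nearest site called in all 4 tissues was 82092068–82092620, 1411 kb away. A distance of this size or more was found for 2.56% of the 43612 sides of protein-coding genes, whose median was 19.6 kb. For the 16 sides of the 8 members the median was 14.7 kb, and Mef2c was the only one beyond 1 Mb. The interval held 17 sites called in fewer tissues and 0 protein-coding genes. Proximal forelimb had 1 of these, distal forelimb 4, posterior trunk 7 and brain 11, and 14 were called in 1 tissue only, where 39.6% of all union sites were. The interval was defined by the lack of a site called in all 4 tissues, so these counts are a description and nothing is read from their shares. The strongest, 82863575–82864186, had a fold of 4.31 in distal forelimb, 8.45 in posterior trunk and 4.62 in brain, with no peak in proximal forelimb.

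**Figure D3:**
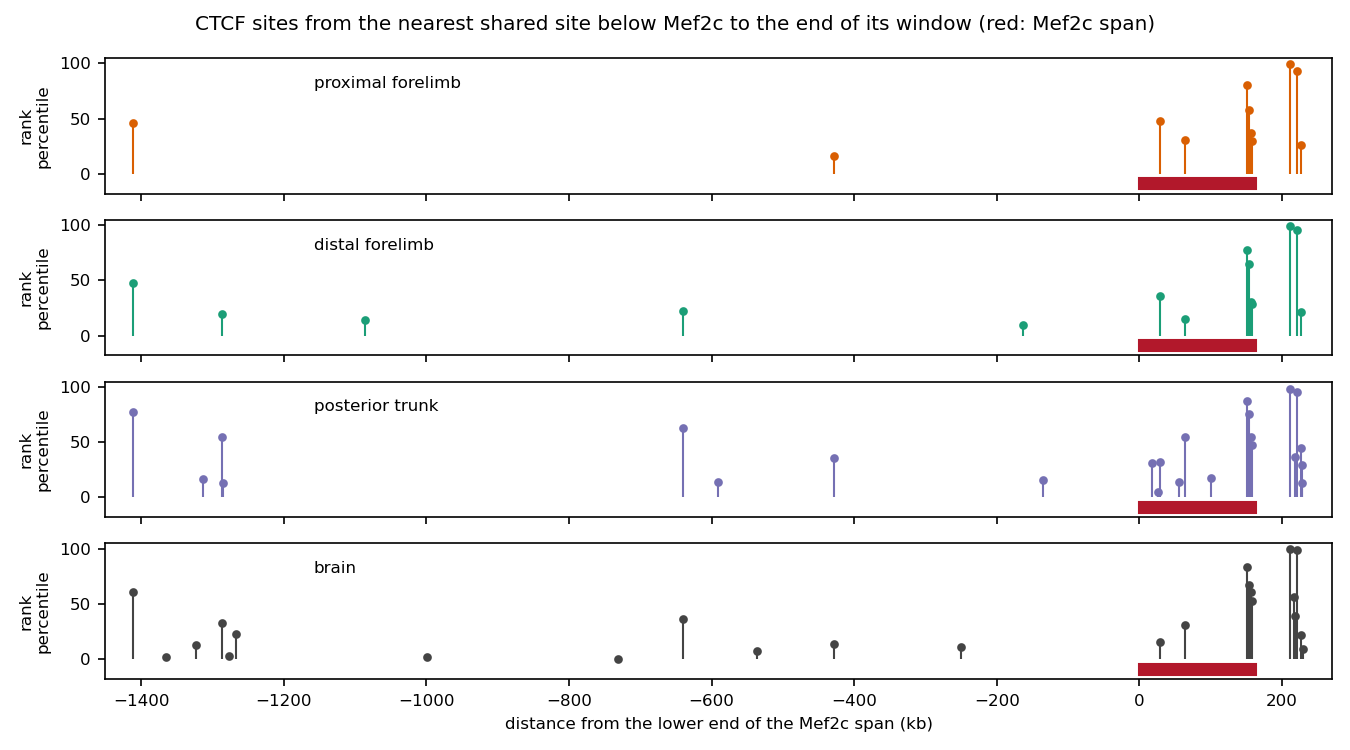
Rank percentile (y axis, within each list) of CTCF peaks by distance from the lower end of Mef2c in kb (x axis), with proximal forelimb, distal forelimb, posterior trunk and brain from top to bottom. Between the shared site 1411 kb below the gene and the gene itself, proximal forelimb has 1 peak, distal forelimb 4, posterior trunk 7 and brain 11.

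The forelimb parts were compared because limb muscle precursors lie mostly in the proximal part. Sites called in proximal and not in distal forelimb numbered 10 (8.40%, against 7.49% of all union sites), and sites called in distal and not in proximal forelimb numbered 2 (1.68%, against 8.25%). The first share was near the background and the second was below it. Near protein-coding genes these backgrounds were 7.23% and 7.74%. When −log10 q had to reach 5, the 10 became 4 (3.96% of the sites left, against 6.04% of all union sites), below the background, and the 2 stayed 2 (1.98%, against 5.85%). With scaling for depth and a −log10 p that had to reach 5, they became 9 and 4 of 96 (9.38% and 4.17%, against 8.34% and 9.09%). In windows of 50 kb they were 3 and 1 of 68 (4.41% and 1.47%).

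Of the 10 proximal sites, 9 were also called in posterior trunk and 5 of these in brain as well. Their median rank in the proximal list was percentile 12.2, against 10.8 for all union sites of this kind, so most were weak. The strongest was 134216369–134217112 in Adora1, 72.9 kb below Myog, with folds of 5.95 in proximal forelimb, 8.38 in posterior trunk and 5.49 in brain. The next was 139799545–139799874 inside Pax7, with 5.50 in proximal forelimb, 5.23 in posterior trunk and 4.12 in brain. The one after it, 139878459–139878805 at 44.9 kb above Pax7, had 3.90 in proximal forelimb, 4.47 in posterior trunk and 6.38 in brain. These 3 were the ones above percentile 30 of the proximal list.

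The other 7 had folds in proximal forelimb between 2.73 and 3.40. In the Myog window they were 134234558–134234961 at the Adora1 start, 134324764–134325023 and 134344195–134344491 in Ppfia4. The remaining ones were 107413121–107413561 in Lin7a, 45294766–45295096 at 57.9 kb above Lbx1, 139896456–139896737 at 62.9 kb above Pax7, and 46435891–46436212 in Kcnc1, a potassium channel gene next to Myod1. None of the 10 was near Met or Mef2c. Had the strongest call of each been scaled to the depth of distal forelimb, all 10 would have passed that list's threshold, a value that leans high because the sites were picked where they passed.

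The 2 sites called in distal and not in proximal forelimb were both in the Myog window. One, 134293587–134293985 at 1.04 kb above Myog, had folds of 3.46 in distal forelimb and 4.07 in posterior trunk. The other was the distal-only site at the Ppfia4 start, 134344547–134344792, at 2.91. It lay 55 bases from the proximal-only site 134344195–134344491, which had a fold of 3.21. These neighbours were the only sites of the 119 called in a forelimb part and in neither posterior trunk nor brain (1.68%, against 5.67% of all union sites).

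**Figure D4:**
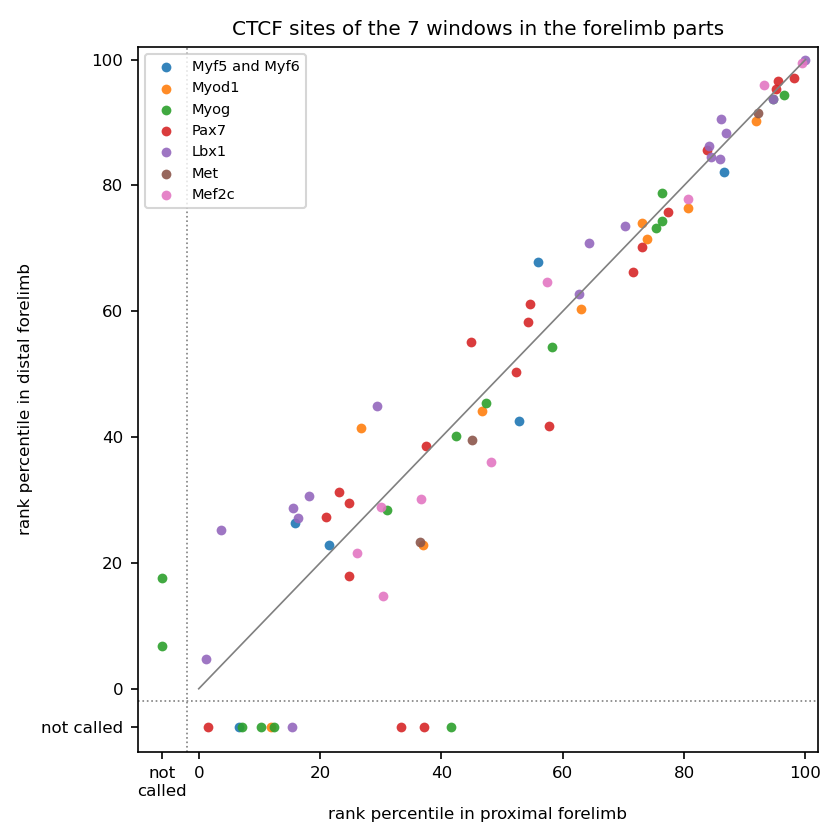
Rank percentile of each site in the proximal forelimb list (x axis) and in the distal forelimb list (y axis), coloured by window, with sites missing from a list placed beyond the dotted lines and equal rank on the grey line. The 10 sites missing from distal forelimb are at the bottom, and the 2 missing from proximal forelimb at the left.

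Where both forelimb parts had a peak, ranks were alike. Over 67 such sites the median difference, proximal minus distal, was 0.695 percentile points, with quartiles of −3.78 and 2.60, against −0.328 over all 54204 sites called in both. By window, ranks among the sites called in all 4 tissues were higher in proximal forelimb for 8 of 9 sites at Myog, 7 of 9 at Mef2c, 6 of 8 at Myod1, 3 of 3 at Met and 3 of 5 at Myf5 and Myf6. At Lbx1 this held for 4 of 15 and at Pax7 for 7 of 17. Over all windows together it held for 38 of 66 (57.6%), against 50.1% of all 51657 sites called in all 4 tissues. The median differences were between −3.72 at Lbx1 and 7.49 at Met, where single sites ranged from 1.01 to 13.3.

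The sites that leaned most to proximal forelimb by rank in their lists were 139852611–139853074 above Pax7, at percentile 57.7 in proximal and 41.7 in distal forelimb, and 83567040–83567445 in Mef2c, at 30.4 in proximal and 14.7 in distal forelimb. They were followed by 46397393–46397810 in Kcnc1, 17663332–17663783 in Capza2, an actin-capping protein gene near Met, and 83532061–83532425 in Mef2c, with differences of 14.1, 13.2 and 12.2 points. In the other direction, 4 of the 5 were around Lbx1 by these list ranks. They were 45266260–45266569, at percentile 3.72 in proximal and 25.2 in distal forelimb, 45308687–45309308, at 29.4 in proximal and 45 in distal forelimb, 45215127–45215498 and 45147796–45148135. The other was 46460566–46460967 in Sergef, in the Myod1 window, at 26.8 in proximal and 41.5 in distal forelimb. By rank among the sites called in all 4 tissues the order differed. The highest stayed at 139852611–139853074, with 20.2 points. The lowest were −15.8 at 45308687–45309308, −14.1 at 107389475–107390044 in Lin7a and −14 at the Sergef site. Next came −11.6 at 139646916–139647307 in Aldh4a1 and −10.5 at 45266260–45266569, whose pileups were 17 in proximal and 26 in distal forelimb.

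Posterior trunk and brain differed most at sites near Pax7, Myod1 and Mef2c. Posterior trunk was also the younger sample, so tissue and stage cannot be told apart here. Their lists have unequal lengths, so ranks among the 51657 sites called in all 4 tissues are given. Over the 66 sites of the windows, the median difference, trunk minus brain, was 1.51 points, against −0.0668 over all such sites. The largest was at 139697855–139698558, 38.5 kb below Pax7, which stood at percentile 66.0 in posterior trunk and 13 in brain. Its folds were 4.26 in proximal forelimb, 4.62 in distal forelimb, 12.3 in posterior trunk and 4.23 in brain, so posterior trunk was high and the other 3 tissues were alike. Next came 134322615–134322988 in Ppfia4, with a difference of 23.9 points, 139840398–139840867 above Pax7, with 17.9, and the Met site 17463309–17463664, with 16.4. They were followed by 139703443–139703864 below Pax7, with 15.9, and 139789724–139790299 in Pax7, with 15.7. The Myf6 site 107493715–107494065, at 9.21 points here, was among the 5 with the highest difference by percentile in the whole lists, 34.0 points. So was 139806049–139806400 in Pax7, with 34.4 points, which had no forelimb peak and folds of 3.83 in posterior trunk and 2.41 in brain.

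Brain was higher at 46397393–46397810 in Kcnc1, with folds of 3.65 in proximal forelimb, 3.00 in distal forelimb, 4.99 in posterior trunk and 7.21 in brain. Its rank was percentile 26.0 in posterior trunk and 59.0 in brain. In Mef2c, 83660732–83661119 and 83662018–83662335 stood at percentiles 14.1 and 7.76 in posterior trunk and at 44.5 and 32.9 in brain. Both are at the upper end of the gene, and folds there were 4.35 and 4.16 in posterior trunk and 6.04 and 5.37 in brain. Outside the shared sites, 139878459–139878805 above Pax7 and 46380745–46380979 above Myod1 also ranked higher in brain than in posterior trunk, with list percentiles of 55.9 and 19 in posterior trunk and 63.0 and 30.3 in brain.

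**Figure D5:**
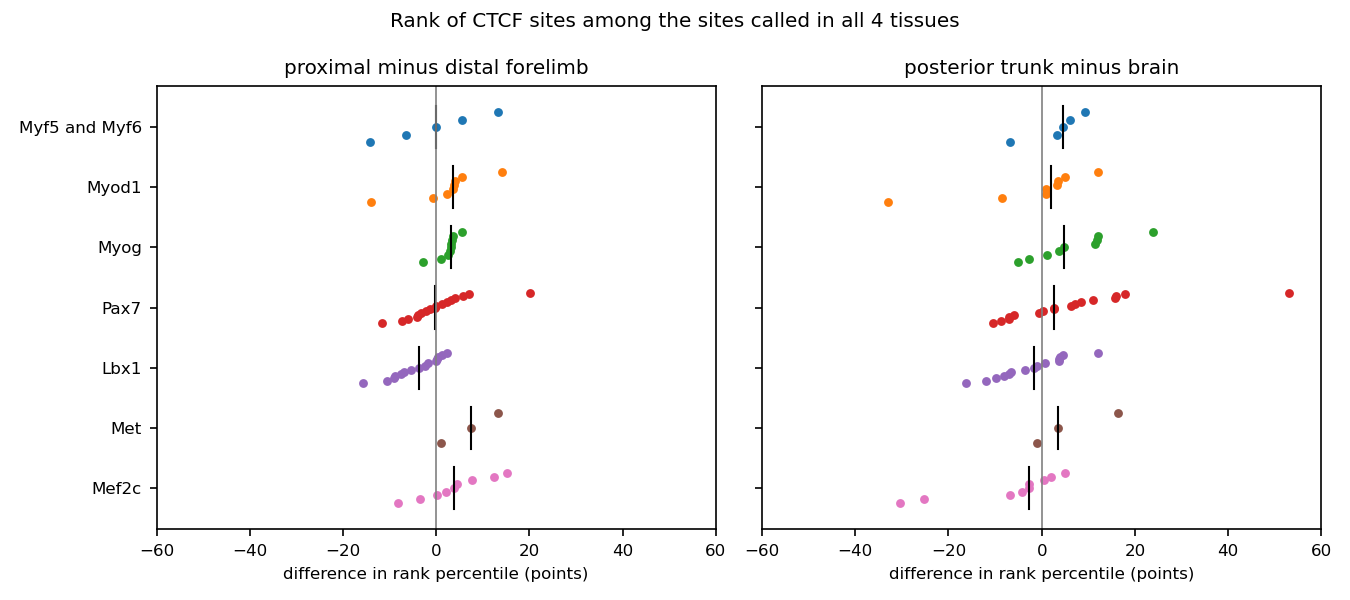
Difference in rank percentile among the sites called in all 4 tissues (x axis, points), proximal minus distal forelimb at the left and posterior trunk minus brain at the right, with 1 point per site and a black bar at the median of each window. The Pax7 site at 53.0 points and the Myod1-window site at −33.0 points stand farthest from 0.

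The brain-only calls with the highest folds were above Pax7 and above Mef2c. At the end of the Pax7 window, 139932163–139932633 in the predicted gene Gm1667 had a fold of 5.20. At the printed C130071C03Rik start, 83721094–83721375 had a fold of 5.14 and percentile 56.3 in brain, from a pileup of 120 over a background of 22.6. When its pileup and background were scaled to posterior trunk the −log10 p would be 50.9, and 25.7 in proximal and 23.8 in distal forelimb. These values lean high, since the site was picked where it was called, and the part of depth in the call was not tested further. Next to it, 83722344–83722623 was called in posterior trunk at 2.79 and in brain at 3.37, and 83733755–83733983 in brain only at 2.73. Between them lay 2 sites called in all 4 tissues, of which 83730788–83731139 ranked at percentile 44.4 or lower in each list. The other, 83724792–83725495, stood at place 4357 in proximal forelimb, 2575 in distal forelimb, 4382 in posterior trunk and 881 in brain. The other brain-only sites, at folds between 2.52 and 3.03, were 17371564–17371772 below Met, 46306807–46307006 in Otog and 46431986–46432190 in Kcnc1, both in the Myod1 window, and 139759686–139759910 in Pax7.

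The trunk-only call with the highest fold in each window was 107561763–107562024 in Ptprq near Myf6, at 5.22, 17583960–17584460 at 9.98 kb above Met, at 5.06, and 134315874–134316174 in Ppfia4, at 4.52. In the other windows these were 83522080–83522303 in Mef2c, at 3.47, 139730528–139730856 at 6.20 kb below Pax7, at 3.19, 45153152–45153448 in Tlx1, a homeobox gene near Lbx1, at 3.11, and 46287050–46287276 in Otog, at 3.08. Scaled to distal forelimb and held to that list's own lowest −log10 p of 3.20, 23 of the 27 trunk-only sites would have passed there, and all 27 would have passed in brain. Over all 119 sites, 45 of the 50 missing from distal forelimb, 37 of the 42 missing from proximal forelimb, 35 of 35 missing from brain and 9 of 9 missing from posterior trunk would have passed on the same reckoning, which again uses pileups from lists where the site was called.

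Other genes of the muscle programme gave a background for these counts. A list of 32 such genes had 600 sites in windows of the same kind. Of these, 285 (47.5%, against 42.4% of all union sites) were called in all 4 tissues. Sites called in proximal and not in distal forelimb numbered 44 (7.33%, against 7.49%), and the reverse 33 (5.50%, against 8.25%). Upstream regulators such as Pax3, which activates the myogenic programme, had 131 sites. Of these, 11 were in proximal and not in distal forelimb (8.40%) and 13 the other way (9.92%). Genes of migration had 2 and 5 of 49 (4.08% and 10.2%) and cofactors 10 and 4 of 160 (6.25% and 2.50%). Inhibitors had 10 and 2 of 95 (10.5% and 2.11%). Muscle effectors such as Myl1, a myosin light chain gene, had 11 and 9 of 165 (6.67% and 5.45%). Sites called in 1 forelimb part only were found near Eya2, in distal forelimb at a fold of 4.05, and Id3, an inhibitor of helix-loop-helix factors, in proximal forelimb at 3.92. Mef2d at 3.79, Myl1 at 3.72, Tcf12 at 3.58, Tcf21 at 3.14 and Des, the desmin gene, at 2.44 had proximal-only sites. Cxcr4, a chemokine receptor gene, at 3.44 and Hgf, the gene of the Met ligand, at 3.06 had distal-only ones. Eya2 and Hgf had proximal-only sites as well, at 3.53 and 2.87. Hgf had 7 sites, of which 0 were called in all tissues.

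Among 13422 other protein-coding genes with at least 15 sites, the shares of sites called in the 4 tissues were most like those of the pooled member windows at Oxnad1, Asap3, Pde1a, Edn3 and Btbd10. Likeness was the mean absolute difference over the 4 shares, which was 0.63 percentage points for each of the 5, and ties were ordered by the difference in median rank. In all 5 windows 64.7% of sites were called in proximal forelimb, 58.8% in distal forelimb, 94.1% in posterior trunk and 70.6% in brain. The genes were picked for these shares, so the likeness is no result. Asap3 had 34 sites and each of the others 17. The difference in median rank percentile ran from 0.147 points at Oxnad1 to 18.4 at Btbd10.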

How the data were processed

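CTCF ChIP-seq peak lists of 4 tissues, 1 library each, were used as deposited. Per the submitters' processing notes, MACS2 2.1.1.20160309, SAMtools 1.9, Bowtie2 2.3.5 and cutadapt 1.16 were used with mm10. The settings of these tools and the control for peak calling were not given in the sources used here. Each row the authors deposited holds a fold, which is a ratio of summit pileup to local background with a pseudocount of 1, a −log10 p-value, a −log10 q-value, a score taken from the q-value, and a summit offset. The highest q was about 0.05 in each list.

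Rows with the same interval were reduced to their strongest summit, and chromosomes 1 to 19, X and Y were kept. Peaks sharing at least 1 base formed union sites, and coordinates are 1-based. Whole pileups and backgrounds were computed from fold and p, which returned −log10 p to within 0.00034. The lists give no read totals, so absolute depth is unknown and only relative depth is given. Gene spans came from RefSeq on GRCm38.p6, where all 8 members and all 32 other myogenic genes were matched. Distances are to gene spans unless a gene start is named. Shares and medians were described beside those of all union sites, and no test was run because each group had 1 library.

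The members and lists were chosen with earlier results of these data known. The rule for named sites took, per window, the strongest shared site, the sites nearest each member and the one-tissue site with the highest fold per tissue. It also took sites in 1 forelimb part and the 5 largest rank differences in each direction, and genes of the other list with a site in 1 forelimb part only; further sites were named after their values were seen, and 1 gene that the rule names is not reported here. Alternatives were a 50 kb window, joining by summits within 200 bases, a −log10 q of at least 5, lists of equal length, scaling to the shallowest list with a −log10 p of at least 5, and each summit as its own peak. The steps were tested on simulated data, where 100% of 5000 tissue patterns and 100% of 19626 pileups came back as made. The simulated peaks of a site shared a centre and separate sites never touched. The pattern result therefore checks the code only, and not how well sites are told apart in the real lists. Computations ran in Python 3.11.15 with pandas 2.3.3, scipy 1.17.1, numpy 2.4.6 and, for figures, matplotlib 3.10.9.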

Additional observations from a re-analysis of the deposited data

How the results depend on the processing

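In windows of 50 kb the sites fell to 68 in all, 42 called in all 4 tissues, 17 in posterior trunk only, 3 in proximal and not in distal forelimb and 1 in the reverse, the median per window and tissue was 7 against 11.5, and the other myogenic genes had 379 sites, since less sequence was searched. When −log10 q had to reach 5, 4 sites were called in proximal and not in distal forelimb, beside 5890 and 5713 in each direction over the genome. Trunk-only sites were 4 in lists of equal length and 13 after scaling for depth with a −log10 p of at least 5, where sites in distal and not in proximal forelimb were 4. Lists of equal length kept the 63873 strongest peaks of each, so weaker peaks of the longer posterior trunk list dropped out by construction. The cause of the other shifts was not tested. The other 50 values for these results stayed within 1.5 times the count given or, for medians, within its 95% interval. That interval was taken over sites or gene sides, which are not replicates, so it measures no spread between libraries. Of 83 values for single windows, single tissues and brain-only sites, 17 moved further, 16 of them lower, 11 at 50 kb. Without the posterior trunk list, chosen after seeing the data, 10 and 2 sites were called in 1 forelimb part only of the pair. Leaving out that list changes only how peaks are joined and not the forelimb peaks, so these counts are no separate check. The median distance to the nearest shared site, 14.7 kb, does not depend on the window, so its value at 50 kb could not move. Leaving out a replicate was not run, since no tissue had a second library. No paired analysis was possible because there was 1 library for every tissue.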
